A study of Mus musculus with 3 samples.

Results

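Liver sinusoidal endothelial cells (LSECs) were studied in 3 single-cell RNA libraries from livers of male C57BL/6 mice aged 9 weeks, 1 library per Adar1 genotype. The genotypes, as labelled, were Adar1flox/flox, Adar1wt/flox and Adar1wt/wt, and every animal was also Ifih1-/- and Alb-Cre+. They are called flox/flox, wt/flox and wt/wt here. All 3 groups therefore lack MDA5, the double-stranded RNA sensor encoded by Ifih1, and the wt/wt library is not a wild-type liver. The Alb-Cre transgene is driven by the albumin promoter, which is active in hepatocytes, so that LSECs are not the cells in which Adar1 was targeted. Which exons are floxed, and how many animals gave each library, is not given in the sources used here. Cells came from a collagenase perfusion followed by low-speed spins and a Percoll gradient, steps that favour hepatocytes.

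An LSEC was a barcode with at most 40% mitochondrial UMIs (unique molecular identifiers, each counting 1 captured transcript) and at least 3 UMIs summed over Kdr, Clec4g, Stab2, Ptprb, Gpr182, Oit3, Dnase1l3 and Egfl7. It also had 0 UMIs of Clec4f, Cd5l, Cd3e and Cd79a and fewer than 2 UMIs over Dcn, Col3a1 and Reln. This rule found 918 of 30000 barcodes, with 156 in flox/flox, 399 in wt/flox and 363 in wt/wt. The members were chosen by these counts, so the levels of the 8 rule genes are a description and not a finding. With 1 library per genotype, no difference below has a replicate check or a test, and every interval is a 95% interval for counting error alone.

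LSECs line the hepatic sinusoid as a fenestrated endothelium without a continuous basement membrane. They clear waste macromolecules, immune complexes and viruses from blood through scavenger and lectin receptors, present antigen, carry factor VIII, and send Wnt, BMP and other angiocrine signals to hepatocytes and stellate cells. They respond to type I interferon, which signals through the receptor IFNAR to interferon-stimulated genes. ADAR1 edits adenosines in double-stranded RNA and thereby limits its detection by MDA5 and other sensors. The series is titled for crosstalk of hepatocytes and macrophages through progranulin and EGFR, and LSECs sit between these cells.

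The libraries held 10756790 UMIs in flox/flox, 10067929 in wt/flox and 9744380 in wt/wt, each over exactly 10000 barcodes. LSECs had a median of 966 UMIs and 668.5 genes in flox/flox, 1015 UMIs and 715 genes in wt/flox, and 1020 UMIs and 712 genes in wt/wt. Their median mitochondrial share was 5.85% in flox/flox, 4.19% in wt/flox and 4.20% in wt/wt. Summed LSEC UMIs were 172392 in flox/flox, 430917 in wt/flox and 396007 in wt/wt. Raw UMI counts below are therefore not levels, and equal counts mean a higher level in flox/flox. Free hepatocyte RNA was present throughout. The 12 hepatocyte markers took 3.53%, 4.23% and 4.26% of LSEC UMIs in flox/flox, wt/flox and wt/wt, against 6.75%, 7.25% and 7.67% in hepatocyte-marker barcodes of the same libraries. Pairs of libraries shared 20 to 32 barcode sequences, but 0 of them between LSECs. Doublets were not called. The rule drops barcodes by 4 Kupffer, T and B cell genes and 3 stellate genes, and LSECs still held 71, 88 and 67 UMIs of the 12 Kupffer markers, 58, 98 and 107 of the 12 stellate markers and 2, 15 and 10 of the 9 T cell markers in flox/flox, wt/flox and wt/wt.

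LSECs made up a smaller part of the flox/flox library than of the others. They were 1.60% of 9774 barcodes within the mitochondrial limit in flox/flox (1.36 to 1.86), 4.02% of 9920 in wt/flox (3.64 to 4.43) and 3.67% of 9878 in wt/wt (3.31 to 4.06). The flox/flox interval lies below both others. Before the exclusions, 230, 491 and 482 barcodes met the marker minimum in flox/flox, wt/flox and wt/wt, and the exclusions removed 32.2%, 18.7% and 24.7% of them. More barcodes were over the mitochondrial limit in flox/flox (226) than in wt/flox (80) and wt/wt (122). How the barcodes of each library were chosen is not given in the sources used here, and the isolation favours hepatocytes. A smaller share here cannot be told apart from fewer LSECs released or captured.

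The selected barcodes carried an endothelial programme beyond the rule genes. The genes with the largest ratio of CPM (UMI counts scaled to a common total of 1e6) in LSECs over all other barcodes were led by Gpihbp1 at 69.5-fold, the capillary anchor of lipoprotein lipase, and Stox2 at 68.8-fold. Of the first 15, 12 were not rule genes, among them Podxl, Emcn, Cyp4b1, Robo4, Aqp1 and Tek. At least 1 UMI of 21 pan-endothelial genes outside the rule was found in 96.0% of LSECs (94.5 to 97.1; median 1014 UMIs), against 65.0% of stellate-marker barcodes (median 1016.5 UMIs), 47.7% of Kupffer-marker (1138), 15.8% of B-marker (894.5), 14.4% of T-marker (1034) and 1.82% of hepatocyte-marker barcodes (865). These ratios share their barcodes with the selection and carry no test. LSECs had UMIs of 4 rule genes in the median, and 70.5%, 72.2% and 73.3% of them in flox/flox, wt/flox and wt/wt had 4 or more. Just inside the threshold, 88.0% of 92 barcodes with 3 rule UMIs had a pan-endothelial UMI. Just outside it, 56.8% of 95 barcodes with 2 rule UMIs had one. The 20 genes of the list of continuous vessel and vein endothelium summed to 1914, 1427 and 1151 CPM in flox/flox, wt/flox and wt/wt, with 3, 5 and 4 of them at 0. Ly6a alone gave 626, 218 and 73.2 CPM of these sums, and so most of the difference between flox/flox and wt/wt. It was also highest in flox/flox in hepatocyte-marker barcodes. Vwf and Cd34, chosen from this list as defining genes, had 9, 3 and 2 UMIs and 4, 6 and 3 UMIs.

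**Figure D1:**
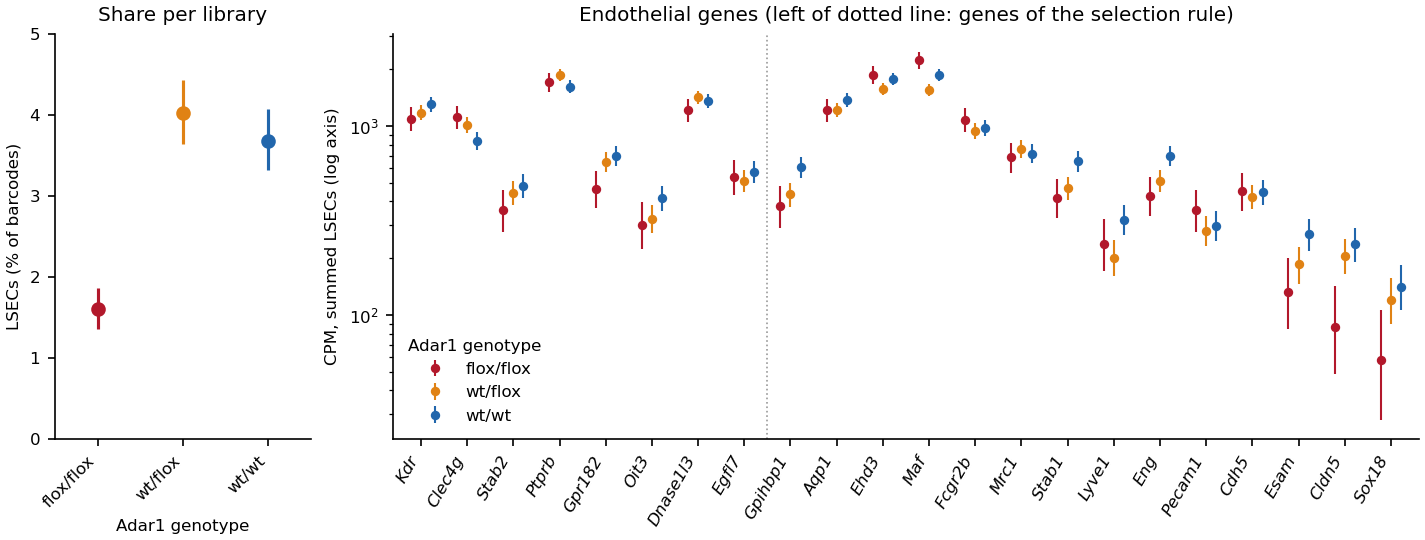
Left, LSECs as a percentage of barcodes within the mitochondrial limit, with exact binomial intervals; right, CPM of endothelial genes summed over LSECs on a log axis, with exact Poisson intervals, 1 library per genotype. The flox/flox share of 1.60% lies below 4.02% in wt/flox and 3.67% in wt/wt, whereas most endothelial genes have overlapping intervals and Cldn5 is lowest in flox/flox at 87.0 CPM.

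Rule genes, whose level the selection constrains, and scavenging genes were close in level across the genotypes when all LSECs were summed. The summed CPM of the 8 rule genes was 6798 in flox/flox, 7424 in wt/flox and 7298 in wt/wt. Their median log2 ratio of flox/flox over wt/wt was -0.22. It was -0.51 among LSECs of at least 1000 UMIs and -0.48 after thinning to 1000 UMIs. Kdr, the main VEGF receptor, had 1091 CPM in flox/flox, 1181 in wt/flox and 1306 in wt/wt. Clec4g, a C-type lectin of sinusoids, had 1114, 1016 and 833 CPM in flox/flox, wt/flox and wt/wt, so its order ran the other way. Gpr182, an atypical chemokine receptor, was the 1 rule gene past 1.5-fold, with 464 CPM in flox/flox, 647 in wt/flox and 699 in wt/wt, a log2 ratio of flox/flox over wt/wt of -0.59 (-0.97 to -0.23).

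Of 16 measured scavenger and lectin receptors, where measured means at least 20 UMIs over the 3 libraries, 1 was at least 1.5-fold higher and 2 were lower in flox/flox than in wt/wt. As background, 17.6% of 6790 genes were higher and 17.8% lower by this rule in the same comparison, many of them at low counts. The list median was -0.00 on the log2 scale, against -0.02 over all measured genes. Mrc1, the mannose receptor, had 684, 761 and 717 CPM in flox/flox, wt/flox and wt/wt. Fcgr2b, which clears immune complexes, had 1085, 944 and 982 CPM in the same order. Neither gene's intervals separated the libraries. Stab1, a scavenger receptor for modified proteins, was lower at 418 CPM in flox/flox, against 471 in wt/flox and 652 in wt/wt (-0.64 over wt/wt; -1.04 to -0.26). Scarb2, a lysosomal receptor, was the higher one, with 284 CPM in flox/flox, 211 in wt/flox and 169 in wt/wt.

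Cldn5 and Sox18 were lower in flox/flox than in both other libraries, and Esam was lowest in flox/flox with wt/flox in between. Among 21 measured pan-endothelial genes, 1 was at least 1.5-fold higher and 6 were lower in flox/flox than in wt/wt, where 17.6% of all genes were higher and 17.8% lower. Cldn5, the endothelial claudin of tight junctions and a member of the sinusoidal list, had 15 UMIs in 14 barcodes of flox/flox, 89 in 77 of wt/flox and 94 in 81 of wt/wt. These counts are 87.0, 207 and 237 CPM, with log2 ratios of -1.45 (interval -2.34 to -0.65) against wt/wt and -1.25 (-2.14 to -0.45) against wt/flox. Sox18, a transcription factor of arterial and lymphatic specification, had 10, 52 and 56 UMIs, with -1.29 (-2.42 to -0.30) against wt/wt and -1.06 (-2.20 to -0.06) against wt/flox. Esam, an adhesion molecule of junctions, had 133 CPM in flox/flox, 186 in wt/flox and 268 in wt/wt. Cdh5 and Pecam1, found at the junctions of endothelial cells, had overlapping intervals: Cdh5 had 452, 422 and 447 CPM and Pecam1 360, 281 and 298 CPM in flox/flox, wt/flox and wt/wt.

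Type I interferon-stimulated genes were higher in flox/flox LSECs than in both other libraries. The list held 47 genes, of which 35 were measured. Of these, 30 were at least 1.5-fold higher and 0 lower in flox/flox than in wt/wt, against the background of 17.6% higher. Over wt/flox, 25 were higher and 0 lower, where 17.0% of 6795 genes were higher and 18.6% lower. In wt/flox over wt/wt, 13 were higher and 1 lower, against 13.5% higher and 12.7% lower of 6796 genes. The list medians were 1.66, 0.94 and 0.44 on the log2 scale in these 3 comparisons, while the medians of all measured genes lay between -0.02 and 0.02. Summed over the list, LSECs had 7593 CPM in flox/flox (7187 to 8016), 4328 in wt/flox (4134 to 4529) and 3596 in wt/wt (3412 to 3788).

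Ifi44, an interferon-induced protein of the cytosol, had 42 UMIs in 36 of 156 LSECs in flox/flox, 18 in 17 of 399 in wt/flox and 13 in 13 of 363 in wt/wt. That is 244, 41.8 and 32.8 CPM, and the log2 ratio was 2.89 (1.97 to 3.91) against wt/wt and 2.54 (1.72 to 3.43) against wt/flox. Rsad2, which encodes the antiviral enzyme viperin, had 255 CPM in flox/flox, 85.9 in wt/flox and 42.9 in wt/wt (2.57, 1.74 to 3.47, over wt/wt). Ifit1, which binds RNA with a foreign cap, had 20, 9 and 4 UMIs, or 116, 20.9 and 10.1 CPM, in flox/flox, wt/flox and wt/wt. The flox/flox library was highest for each of these genes, with CPM intervals clear of both other libraries.

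Promoter sequence is shown for these 3 genes as examples of the interferon genes that lead the flox/flox differences. The windows run from 250 bases before to 50 bases after the annotated start, are taken from RefSeq on GRCm38.p6, and read 5′ to 3′ on the gene's strand. Capitals mark matches to GAAANNGAAA, a core of the element bound by interferon regulatory factors, searched on both strands and so also read as TTTCNNTTTC. No other motif was searched. The Ifit1 window is chr19:34640639-34640938 on the plus strand, the Rsad2 window chr12:26456403-26456702 on the minus strand and the Ifi44 window chr3:151749861-151750160 on the minus strand.
Ifit1: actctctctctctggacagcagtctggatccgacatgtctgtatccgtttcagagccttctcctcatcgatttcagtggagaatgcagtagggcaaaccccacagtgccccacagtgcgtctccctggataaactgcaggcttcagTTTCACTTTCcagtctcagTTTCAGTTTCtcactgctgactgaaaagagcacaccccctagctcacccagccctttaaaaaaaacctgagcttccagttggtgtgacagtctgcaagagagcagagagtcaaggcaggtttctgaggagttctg
Rsad2: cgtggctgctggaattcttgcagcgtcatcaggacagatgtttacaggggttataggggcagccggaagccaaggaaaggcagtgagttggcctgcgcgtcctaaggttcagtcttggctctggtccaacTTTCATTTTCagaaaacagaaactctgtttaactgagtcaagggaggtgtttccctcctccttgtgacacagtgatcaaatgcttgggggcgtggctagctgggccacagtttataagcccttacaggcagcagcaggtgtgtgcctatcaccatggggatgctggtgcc
Ifi44: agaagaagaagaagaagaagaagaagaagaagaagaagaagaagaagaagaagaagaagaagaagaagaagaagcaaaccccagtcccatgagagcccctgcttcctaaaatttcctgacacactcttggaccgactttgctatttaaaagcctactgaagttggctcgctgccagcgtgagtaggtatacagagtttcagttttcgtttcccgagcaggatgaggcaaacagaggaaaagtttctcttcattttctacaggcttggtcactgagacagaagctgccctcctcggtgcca
Ifit1 held 2 matches, whose first bases lie 104 and 85 bases before the start, and Rsad2 held 1 at 120 bases before it. Ifi44 held 0 in this window. Of all 32851 windows in the table, 3.44% held a match, and of 27 measured type I list genes with a window, 13 did (48.1%). A match describes the letters and shows neither binding nor use in LSECs.

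Regulators and effectors on the list spanned a wide range. Irf7, the factor that amplifies interferon production, had 151 CPM in flox/flox, 30.2 in wt/flox and 30.3 in wt/wt, with a log2 ratio for wt/flox over wt/wt of -0.01 (-1.26 to 1.26). In wt/wt, 4 of the 12 Irf7 UMIs were in 1 barcode. Without leukocyte-marker barcodes, 11 UMIs remained in wt/flox and 5 in wt/wt, with a log2 ratio of 0.94 (-0.70 to 2.82). Stat2 and Irf9, which carry the signal of the interferon receptor to the nucleus, had 52.2, 51.1 and 42.9 CPM and 75.4, 51.1 and 68.2 CPM, with intervals that overlapped throughout. Usp18, which removes ISG15 from proteins and damps the receptor, had 12, 6 and 4 UMIs. Isg15 itself rested on 8, 11 and 3 UMIs.

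Ly6e, a membrane protein linked to GPI, had 178 UMIs in 100 LSECs of flox/flox, 153 in 116 of wt/flox and 107 in 87 of wt/wt. Its levels were 1033, 355 and 270 CPM, with 1.93 (1.58 to 2.29) for flox/flox over wt/wt. Hepatocyte-marker barcodes carried Ly6e at 932, 254 and 199 CPM, and 56.9%, 20.3% and 15.8% of them had a UMI at median depths of 905, 869 and 829 UMIs. With free hepatocyte RNA subtracted, the Ly6e log2 ratio of flox/flox over wt/wt was 1.66. Ifitm3, a barrier to virus entry, had 1340, 993 and 793 CPM in LSECs, below or near the 1600, 1068 and 753 CPM of hepatocyte-marker barcodes. Ifitm2, its neighbour, had 888, 757 and 821 CPM in LSECs and did not pass 1.5-fold in any comparison.

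Rsad2, Ifi44, Trim30a and Oasl2 were at higher levels in LSECs than in hepatocyte-marker barcodes of every library. Rsad2 had 36.1, 16.6 and 6.56 CPM in hepatocyte-marker barcodes of flox/flox, wt/flox and wt/wt, and a UMI in 3.09%, 1.35% and 0.539% of them, against 20.5%, 7.27% and 4.68% of LSECs. Ifi44 had 66.1, 2.78 and 0.386 CPM there. Trim30a, a ubiquitin ligase family member, had 34.0, 6.63 and 2.44 CPM there and 168, 90.5 and 42.9 CPM in LSECs. Oasl2, an oligoadenylate synthetase-like protein, had 128, 53.4 and 20.2 CPM in LSECs and 1.99 and 1.29 CPM in hepatocyte-marker barcodes of wt/flox and wt/wt. With free hepatocyte RNA subtracted in proportion to the hepatocyte markers, the list summed to 10019, 6485 and 5605 CPM in flox/flox, wt/flox and wt/wt. The log2 ratio of the summed list over wt/wt was then 0.84, against 1.08 (0.97 to 1.19) without subtraction.

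Every one of the 156 flox/flox LSECs had a type I list UMI, as did 97.5% in wt/flox and 94.8% in wt/wt. The median was 7 UMIs per LSEC in flox/flox (quartiles 5 and 10), 4 in wt/flox (2 and 6) and 3 in wt/wt (2 and 5). The top 5 barcodes held 8.79%, 5.47% and 5.83% of the list's UMIs in flox/flox, wt/flox and wt/wt. Hepatocyte-marker barcodes had medians of 5, 2 and 1, and 98.0%, 89.9% and 79.2% of them held a list UMI. The hepatocyte markers in LSECs stood at 52.2%, 58.3% and 55.5% of their level in those barcodes in flox/flox, wt/flox and wt/wt.

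**Figure D2:**
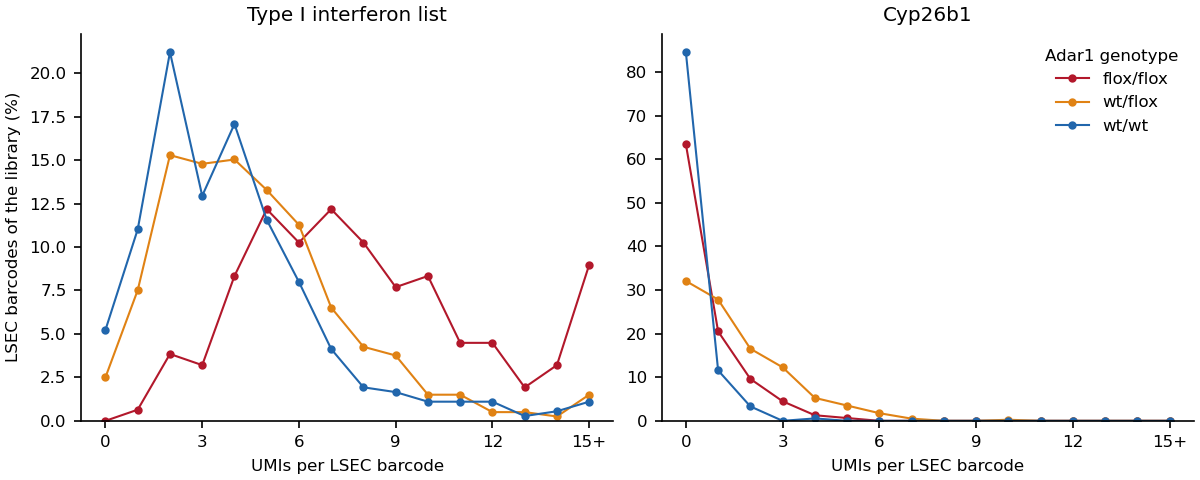
Percentage of LSEC barcodes of each library by the number of UMIs they hold, for the type I interferon list (left) and Cyp26b1 (right), with 15 or more pooled. The flox/flox curve for the interferon list lies to the right, with a median of 7 UMIs against 4 in wt/flox and 3 in wt/wt, and Cyp26b1 has fewest barcodes at 0 in wt/flox.

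The same direction was present in the other cell classes of these libraries. In hepatocyte-marker barcodes 43 of 45 measured members were at least 1.5-fold higher in flox/flox than in wt/wt, with a median of 1.88. Kupffer-marker barcodes had a median of 1.56 over 41 measured members, stellate-marker barcodes 1.42 over 28 and T-marker barcodes 0.85 over 33. The LSEC median of 1.66 lies within that range. The shares and medians over all genes given above are those of LSECs, so the values of the other classes stand without a background of their own. Whether LSECs differ from these classes was not tested.

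**Figure D3:**
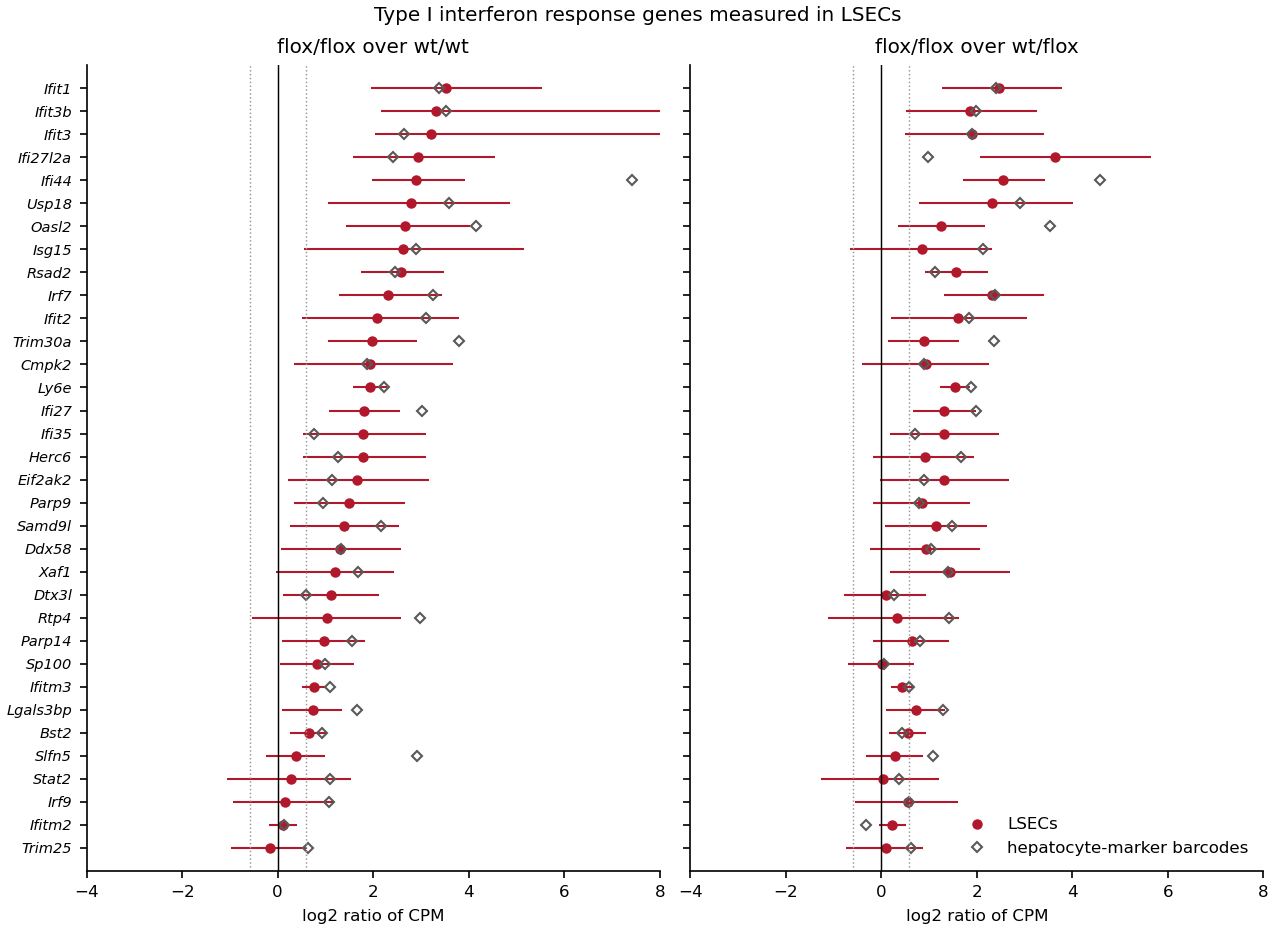
Log2 ratios of CPM for measured type I interferon genes in LSECs, with 1 list member not shown (filled points with exact counting intervals, drawn to the axis limit where longer) and in hepatocyte-marker barcodes (open diamonds), for flox/flox over wt/wt (left) and over wt/flox (right); dotted lines mark 1.5-fold. Most LSEC points lie beyond the upper line in both panels, and 0 lie beyond the lower line.

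Ly6a, the GPI-linked antigen Sca-1, stood on the list of continuous vessel and vein genes. Of 9 measured genes of that list, 5 were at least 1.5-fold higher and 2 lower in flox/flox than in wt/wt (median 0.85). The shares over all genes were 17.6% higher and 17.8% lower. Ly6a had 108 UMIs in 64 LSECs of flox/flox, 94 in 58 of wt/flox and 29 in 20 of wt/wt, or 626, 218 and 73.2 CPM. The interval of the log2 ratio of flox/flox over wt/wt ran between 2.49 and 3.74, and the ratio was 1.52 (1.11 to 1.94) for flox/flox over wt/flox and 1.57 (0.96 to 2.23) for wt/flox over wt/wt. The 3 libraries were thus ordered with no overlap of their counting intervals. Hepatocyte-marker barcodes had 127, 9.55 and 3.47 CPM, well under the LSEC level in each library. Ifi207, a PYHIN family DNA binder, had 238 CPM in flox/flox, 65.0 in wt/flox and 80.8 in wt/wt, and Nampt, the enzyme that makes NAD from nicotinamide, had 232, 78.9 and 80.8 CPM. Without barcodes that held leukocyte markers, the Nampt log2 ratio of flox/flox over wt/wt was 0.89 (-0.04 to 1.80), against 1.52 (0.81 to 2.24) with them.

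Of 17 measured genes known for responding to interferon gamma, 16 gave a ratio of flox/flox over wt/wt, of which 9 were at least 1.5-fold higher and 0 lower, against 17.6% and 17.8% of all genes. Over wt/flox, 6 were higher and 3 lower (17.0% and 18.6% of all genes), and in wt/flox over wt/wt 10 were higher and 2 lower (13.5% and 12.7%). Iigp1, an immunity-related GTPase, had 725, 538 and 412 CPM in flox/flox, wt/flox and wt/wt, close to the 870, 588 and 416 CPM of hepatocyte-marker barcodes. Gbp3 and Gbp6, guanylate-binding proteins, rested on 10 UMIs each in flox/flox, against 7 and 9 in wt/flox and 5 and 4 in wt/wt. Irf8 was lowest in wt/flox, with 110 CPM in flox/flox, 44.1 in wt/flox and 93.4 in wt/wt.

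Of 19 measured MHC class I genes, 9 were at least 1.5-fold higher and 1 lower in flox/flox than in wt/wt, against 17.6% and 17.8% of all genes. Over wt/flox, 5 were higher and 0 lower, against 17.0% and 18.6%. B2m, the common light chain, had 2929 CPM in flox/flox, 2376 in wt/flox and 1687 in wt/wt. H2-K1, a classical heavy chain, had 1914, 1139 and 1033 CPM, with 0.89 (0.68 to 1.10) over wt/wt. Tap1, a subunit of the peptide transporter, had 75.4, 41.8 and 37.9 CPM. H2-Q4, a non-classical heavy chain, was the lower one with 10, 22 and 38 UMIs in flox/flox, wt/flox and wt/wt.

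MHC class II transcripts sat in a handful of barcodes. Cd74, H2-Aa, H2-Ab1 and H2-Eb1 together had 214 UMIs in flox/flox, 163 in wt/flox and 71 in wt/wt, in 7, 8 and 16 LSECs. The top 5 barcodes held 95.3%, 98.2% and 54.9% of them. In the same libraries the 10 monocyte and macrophage markers summed to 882, 227 and 88.4 CPM in LSECs, with 1, 0 and 4 of the 10 at 0, and the 12 Kupffer markers to 412, 204 and 169 CPM, with 4, 5 and 2 at 0, among them Clec4f and Cd5l by the rule. Lyz2, the lysozyme of myeloid cells, had 79, 48 and 5 UMIs in 8, 8 and 3 LSECs. With barcodes that held any of 18 leukocyte markers left out, a step chosen after the data were seen, 129, 365 and 313 LSECs remained and the class II genes had 0, 2 and 15 UMIs. H2-Aa, H2-Ab1, H2-Eb1, Lyz2 and Plac8 were among the named genes higher in flox/flox, and Plac8 kept 4, 2 and 6 UMIs without these barcodes.

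The type I interferon list was as high without those barcodes. It summed then to 7737 CPM in flox/flox, 4303 in wt/flox and 3536 in wt/wt. Ly6a then had 606, 232 and 59.6 CPM, Irf7 159, 28.6 and 14.9 CPM and H2-K1 2038, 1137 and 998 CPM in flox/flox, wt/flox and wt/wt.

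Among the double-stranded RNA sensing and editing genes, 9 of 18 were measured. Adar itself had 14 UMIs in flox/flox, 11 in wt/flox and 11 in wt/wt, or 81.2, 25.5 and 27.8 CPM, with 1.55 (0.30 to 2.83) for flox/flox over wt/wt. It was thus not lower in LSECs of the library labelled flox/flox. Alb-Cre acts in hepatocytes, and a 3′ tag outside the deleted part does not check the deletion. Ifih1, deleted in all 3 groups, had 0 UMIs in LSECs of every library. Eif2ak2, the kinase PKR, had 11, 11 and 8 UMIs in flox/flox, wt/flox and wt/wt, which relative to the LSEC totals is highest in flox/flox. Adarb1, which encodes the related editing enzyme ADAR2, had 8, 26 and 37 UMIs. Mavs, the adaptor downstream of MDA5, had 46.4, 48.7 and 55.6 CPM.

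Genes that mark position along the sinusoid did not move as 1 block. Hepatic sinusoids run between the portal tract and the central vein, and LSECs express different genes along the way: Wnt2 and Rspo3 near the vein, Dll4, Efnb2, Ltbp4 and Ntn4 towards the portal tract. Of 14 measured portal-side genes, 4 were at least 1.5-fold higher and 5 lower in flox/flox than in wt/wt (median -0.14). Of 9 measured central-side genes, 5 were higher and 1 lower (median 0.61). Of all genes, 17.6% were higher and 17.8% lower in this comparison. Over wt/flox these were 2 higher and 5 lower on the portal side and 4 higher and 1 lower on the central side. The shares of all genes there were 17.0% higher and 18.6% lower.

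Ltbp4 binds latent TGF-beta in the matrix. It had 17 UMIs in 15 LSECs of flox/flox, 155 in 112 of wt/flox and 149 in 111 of wt/wt, or 98.6, 360 and 376 CPM. Its log2 ratio was -1.93 (-2.75 to -1.20) against wt/wt and -1.87 (-2.68 to -1.14) against wt/flox, while wt/flox and wt/wt did not differ beyond counting error (-0.06, -0.40 to 0.27). Ltbp4 was detected in 9.62%, 28.1% and 30.6% of LSECs, and in 8.96%, 32.0% and 28.4% of the 67, 219 and 204 LSECs deep enough to be thinned to 1000 UMIs, with 89, 180 and 159 shallower ones left out. Hepatocyte-marker barcodes had a UMI in 0.0775%, 0.143% and 0.208%. Ntn4, a netrin of basement membranes, followed with 133, 248 and 263 CPM in flox/flox, wt/flox and wt/wt. Other genes of the same list went the other way: Adam23 had 626, 494 and 412 CPM and Podxl 215, 162 and 119 CPM, both highest in flox/flox. Glul on this list had 580, 341 and 313 CPM in LSECs and 220, 200 and 97.3 CPM in hepatocyte-marker barcodes.

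On the central side, Thbd, the thrombin receptor thrombomodulin, had 26 UMIs in 24 LSECs of flox/flox, 21 in 21 of wt/flox and 23 in 22 of wt/wt. That is 151, 48.7 and 58.1 CPM, and the log2 ratio was 1.38 (0.51 to 2.25) against wt/wt and 1.63 (0.74 to 2.53) against wt/flox. Wnt2, the angiocrine signal that maintains pericentral hepatocytes, had 16, 34 and 23 UMIs, or 92.8, 78.9 and 58.1 CPM, and its intervals overlapped. Rspo3, its co-activator, rested on 7, 7 and 8 UMIs, which relative to the LSEC totals is highest in flox/flox. Plvap, of the fenestral diaphragm, went the other way with 5, 28 and 22 UMIs. At this depth single LSECs could not be placed on the axis: of those with a central-side UMI, 90.2%, 85.3% and 87.8% in flox/flox, wt/flox and wt/wt also had a portal-side UMI, and of those without one 84.4%, 86.6% and 89.7% did.

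Of 16 measured genes of the shear and arterial list, 8 were at least 1.5-fold lower and 2 higher in wt/flox than in wt/wt (median -0.57), where 12.7% of all genes were lower and 13.5% higher. In flox/flox over wt/wt, 3 were higher and 4 lower, where 17.6% of all genes were higher and 17.8% lower. Klf2, the transcription factor that answers shear, had 103 UMIs in flox/flox, 124 in wt/flox and 225 in wt/wt, or 597, 288 and 568 CPM. It was present in 43.6%, 24.8% and 39.9% of LSECs, and in fewer than 1% of hepatocyte-marker barcodes in each library (0.749%, 0.778% and 0.832%). The wt/flox library was low, with -0.98 (-1.31 to -0.66) over wt/wt, and flox/flox and wt/wt did not differ beyond counting error (0.07, -0.28 to 0.42). Gja4, the arterial connexin 37, had 255, 95.1 and 293 CPM in flox/flox, wt/flox and wt/wt, with -1.62 (-2.17 to -1.10) for wt/flox over wt/wt. Klf4 had 10, 11 and 34 UMIs.

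Of the same list, 3 Notch pathway genes were chosen after their values were seen. Hes1, a Notch target, had 81.2 CPM in flox/flox, 76.6 in wt/flox and 169 in wt/wt. Notch1, a receptor, had 174, 197 and 280 CPM, and Dll4, a ligand, rested on 4, 10 and 24 UMIs. All 3 were highest in wt/wt, but they were picked with these values known, so their shared order is no result about the pathway. Other Notch genes of the list are not shown. Nr2f2, the venous identity factor COUP-TFII, was highest in wt/flox, with 238, 364 and 202 CPM in flox/flox, wt/flox and wt/wt and 0.85 (0.45 to 1.26) for wt/flox over wt/wt. Nos3, the endothelial nitric oxide synthase, had 12, 17 and 16 UMIs, which relative to the LSEC totals is highest in flox/flox. Depth and mitochondrial share, both given above, were close in wt/flox and wt/wt LSECs. The summed heat shock and oxidative stress list was not, at 4398 CPM in wt/flox and 6641 in wt/wt, though its median log2 ratio was 0.09. The cause of the low values in wt/flox was not tested.

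**Figure D4:**
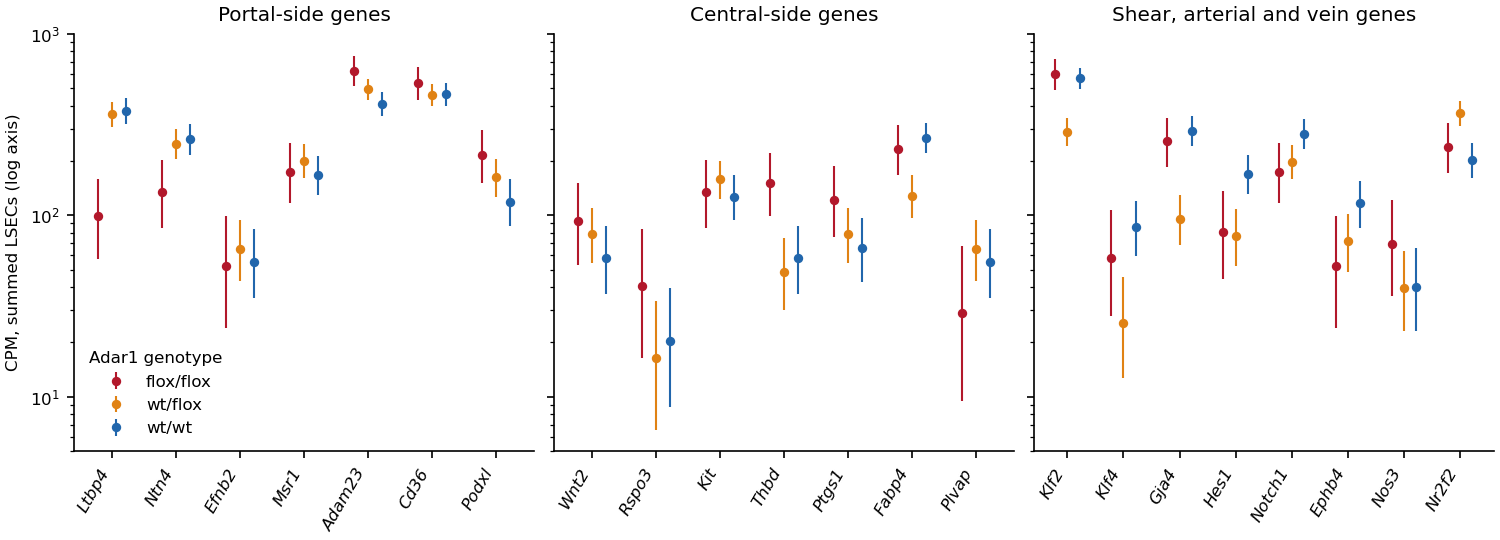
CPM on a log axis of genes summed over LSECs, with exact Poisson intervals, for portal-side, central-side and flow-related genes. Ltbp4 and Ntn4 are lowest in flox/flox, Thbd is highest in flox/flox, and Klf2 and Gja4 are lowest in wt/flox at 288 and 95.1 CPM.

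Cyp26b1 set wt/flox LSECs apart. The enzyme breaks down retinoic acid, and LSECs lie against the stellate cells that store retinoids. It had 96 UMIs in 57 LSECs of flox/flox, 610 in 271 of wt/flox and 74 in 56 of wt/wt. The levels were 557, 1416 and 187 CPM, with log2 ratios of 2.92 (2.57 to 3.29) for wt/flox over wt/wt, -1.35 (-1.67 to -1.03) for flox/flox over wt/flox and 1.58 (1.12 to 2.03) for flox/flox over wt/wt. It was detected in 36.5%, 67.9% and 15.4% of LSECs in flox/flox, wt/flox and wt/wt, and in 34.3%, 68.9% and 15.7% of the 67, 219 and 204 thinned ones. Hepatocyte-marker barcodes had 1.84, 3.71 and 0.772 CPM. Stellate-marker barcodes, which also carry LSEC transcripts such as Kdr at 585, 611 and 500 CPM, had 288, 825 and 58.1 CPM.

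Other named genes with at least 20 UMIs in wt/flox and a higher level than in wt/wt were Lyz2, Cxcl10, Fos, Smim1, Mospd3, Meis1 and Kctd12b. Cxcl10, a chemokine gene, had 9 of its 20 wt/flox UMIs in 1 barcode, and without leukocyte-marker barcodes 7 remained and the log2 ratio over wt/wt was 1.03 (-0.78 to 4.92), against 2.62 with them. Meis1, a homeobox factor, had 2, 30 and 7 UMIs in flox/flox, wt/flox and wt/wt, and Kctd12b, a tetramerisation-domain protein, 14, 34 and 8. The Kctd12b levels were 81.2, 78.9 and 20.2 CPM, so that flox/flox and wt/flox did not differ beyond counting error (0.04, -0.97 to 0.98). Hgf, the hepatocyte growth factor, had 11, 45 and 13 UMIs, or 63.8, 104 and 32.8 CPM. It was chosen after its values were seen among the angiocrine genes. The genes lower in wt/flox than in wt/wt were Ddit4, Spata2l, Per1, Shank3, Depp1, Sh2d3c, Itprip and Arl4d. Ddit4, a stress-induced inhibitor of mTORC1, had 58.0, 20.9 and 159 CPM in LSECs of flox/flox, wt/flox and wt/wt and 31.8, 10.2 and 93.5 CPM in hepatocyte-marker barcodes. Shank3, a scaffold protein, had 10, 11 and 52 UMIs in LSECs, and under 1 CPM in hepatocyte-marker barcodes.

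The remaining named genes higher in flox/flox than in both other libraries were Ctcf and Ccn2. Ctcf, the insulator protein, had 24, 20 and 17 UMIs, or 139, 46.4 and 42.9 CPM, in flox/flox, wt/flox and wt/wt. Ccn2, a matricellular growth factor, had 25, 6 and 9 UMIs, but 23 of the 25 were in 1 barcode. In all, 100 genes met the criteria for higher and 184 those for lower. The higher ones needed 20 UMIs in flox/flox, which had the fewest LSEC UMIs, and the lower ones 20 in each other library. These counts therefore cannot be compared with each other. Against wt/wt alone, 17.6% of 6790 genes were at least 1.5-fold higher and 17.8% lower. The named lower genes were Ltbp4, Plk2, Cs, Dcun1d5, Snx18, Puf60, Utp11, Ggact, Eapp, Exoc1 and Fdx2. Apart from Ltbp4, each of them had 4 or fewer UMIs in flox/flox, so that their ratios rest on few molecules. Plk2, a polo-like kinase, had 4, 34 and 40 UMIs in flox/flox, wt/flox and wt/wt.

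For signals that LSECs send and receive, the background of flox/flox over wt/wt was again 17.6% of all genes higher and 17.8% lower. Of 13 measured angiocrine genes, 4 were at least 1.5-fold higher and 2 lower in flox/flox than in wt/wt (median 0.38). Bmp2, which drives hepcidin in hepatocytes, had 934, 898 and 672 CPM in flox/flox, wt/flox and wt/wt. Of 12 measured VEGF and angiopoietin receptor genes, 1 was higher and 0 lower: Tie1, with 19, 42 and 27 UMIs. Of 16 measured BMP and TGF-beta genes, 2 were higher and 5 lower. Smad6 and Smad7, inhibitors induced by these pathways, had 8, 40 and 38 UMIs and 9, 47 and 45 UMIs in flox/flox, wt/flox and wt/wt. Eng, the co-receptor endoglin, had 429, 513 and 697 CPM. Id2, a target of BMP signalling, was highest in wt/flox, with 139, 258 and 106 CPM, near the 125, 276 and 96.2 CPM of hepatocyte-marker barcodes.

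For blood clotting, 2 of 13 measured genes were higher and 0 lower in flox/flox than in wt/wt. For this list and those below, the shares over all genes were 17.6% higher and 17.8% lower. F8, clotting factor VIII, had 331, 290 and 245 CPM in flox/flox, wt/flox and wt/wt, and Tfpi, the tissue factor pathway inhibitor, 238, 190 and 126 CPM. Among leukocyte adhesion genes, 4 of 13 measured were higher and 4 lower. Icam1 and Vcam1, which are induced by inflammatory cytokines, had 5, 11 and 16 UMIs and 7, 15 and 18 UMIs in flox/flox, wt/flox and wt/wt. Relative to the LSEC totals neither gene was lowest in flox/flox, and both rest on few UMIs. Of 8 measured NF-kappaB and inflammatory activation genes, 0 were higher and 2 lower.

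UMIs of both genes in the study's title were counted in LSECs. Grn, the progranulin gene, had 50, 64 and 79 UMIs, or 290, 149 and 199 CPM, in flox/flox, wt/flox and wt/wt, with 0.54 (-0.00 to 1.07) over wt/wt. Psap, the prosaposin gene whose product carries progranulin to lysosomes, had 882, 494 and 530 CPM, with 0.73 (0.42 to 1.04). Without the leukocyte-marker barcodes these ratios were 0.30 (-0.38 to 0.95) for Grn and 0.14 (-0.28 to 0.55) for Psap. Kupffer-marker barcodes held Grn at 2008, 1583 and 1319 CPM. Egfr had 273, 99.8 and 174 CPM in LSECs of flox/flox, wt/flox and wt/wt, below the 563, 224 and 368 CPM of hepatocyte-marker barcodes, and follows their order. Hepatocyte markers in LSECs stood at 52.2%, 58.3% and 55.5% of their level in those barcodes. The Egfr counts of LSECs cannot be told apart from free hepatocyte RNA.

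**Figure D5:**
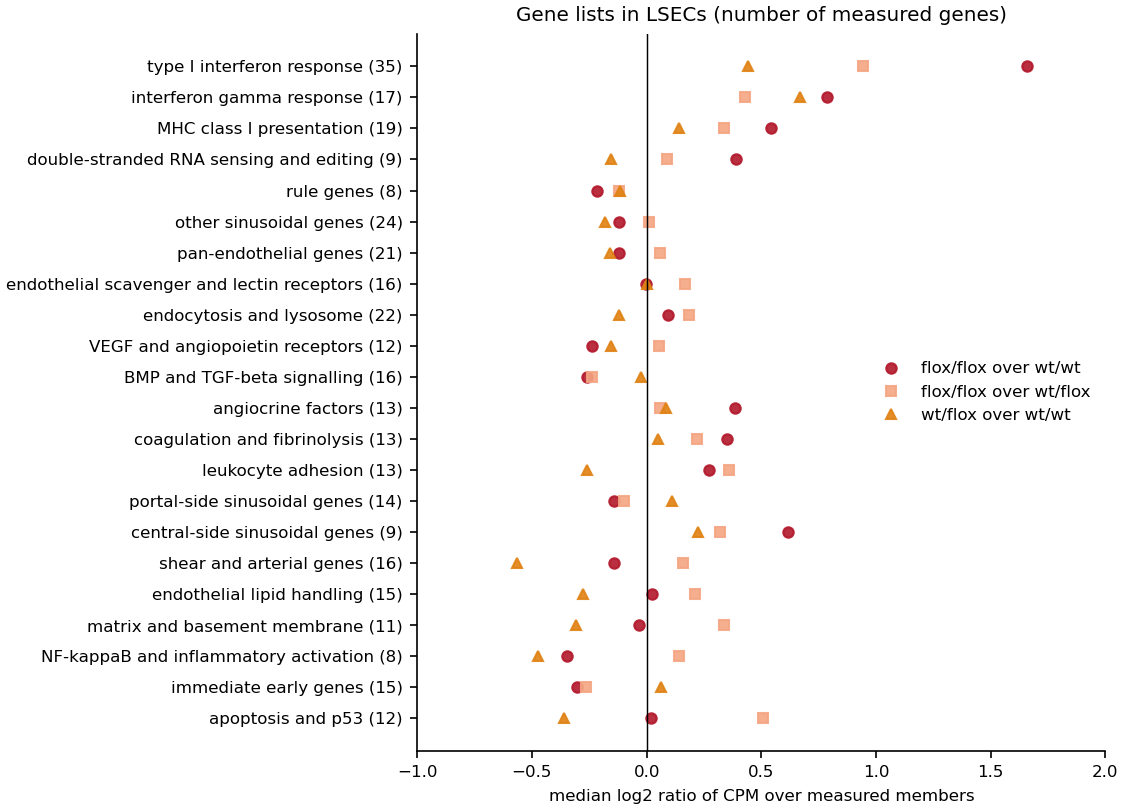
Median log2 ratio of CPM over the measured genes of 22 lists in LSECs, for the 3 comparisons between genotypes; the number of measured genes is in brackets. The type I interferon list stands at 1.66, 0.94 and 0.44, the rule genes and the scavenger list lie between -0.22 and 0.17, and the shear list at -0.57 in wt/flox over wt/wt.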

How the data were processed

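The authors deposited unscaled whole-number UMI counts, 1 value for each gene in each barcode. Their matrix came from Cell Ranger 6.1.1, per the file headers, and Seurat and the mm10 build are named in the submitters' processing notes. The kit was 10x Genomics 3′ per the labels' protocols. The barcode suffix gives the library, and each held exactly 10000 barcodes. How the barcodes were chosen or combined before deposit is not given in the sources used here.

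LSECs were selected by the stated rule with Python 3.11.15, numpy 2.4.6, scipy 1.17.1 and pandas 2.3.3. For each library their UMIs were added up, and CPM are relative to the LSEC total of 172392 (flox/flox), 430917 (wt/flox) and 396007 (wt/wt) UMIs. Log2 ratios put the first-named genotype on top and carry exact conditional binomial intervals. CPM carry exact Poisson intervals and shares exact Clopper-Pearson intervals, at 95%, for counting error only. In ratios counts under 3 were set to 3, and no ratio was given where both counts were 3 or less. UMIs merge PCR copies, but molecules of 1 library are not replicates. Genes with 20 or more UMIs in all LSECs together counted as measured (6796 genes), and as higher or lower past 1.5-fold. No doublet caller was run; alternatives left out deep barcodes, barcodes with markers of other classes or leukocytes, or shallow barcodes, subtracted hepatocyte RNA, thinned, rescaled, or moved a minimum. The interval code was tested on simulated data.

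Comparison classes were barcodes with at least 2 UMIs of Kupffer, stellate, T or B cell markers, and hepatocyte-marker barcodes with 0 UMIs of every such gene, of the rule genes and of Ptprc. Members and lists were chosen with earlier results of these data known. Named genes had the same sign against both other libraries, at least 1.5-fold, with at least 20 UMIs where higher, ranked by the smaller ratio (12 higher, 12 lower, 10 higher outside the interferon, MHC class I and RNA sensing lists), or were the 8 highest and 8 lowest of wt/flox over wt/wt. In the library where a gene was highest, its CPM had to reach that of hepatocyte-marker barcodes and 0.25 of that of each other class. From lists, defining genes and those with the highest or lowest ratio were named, and a few others were chosen after their values were seen. A member of the type I interferon list and a gene of the lower set are not reported here. Promoter windows came from RefSeq (GRCm38.p6).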

Additional observations from a re-analysis of the deposited data

Results flagged for a closer look

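Hes1 and Smad7 went opposite ways in LSECs and in hepatocyte-marker barcodes of the same libraries, with counting intervals that exclude 0 on both sides, and the difference between the classes was not tested, since each genotype has 1 library. Hes1 had a log2 ratio of -1.06 (-2.01 to -0.21) in LSECs for flox/flox over wt/wt, against 1.92 (1.48 to 2.39) in hepatocyte-marker barcodes. For wt/flox over wt/wt it was -1.14 (-1.79 to -0.52) in LSECs, against 0.87 (0.36 to 1.39). Smad7 had -1.12 (-2.34 to -0.07) in LSECs for flox/flox over wt/wt, against 0.65 (0.20 to 1.10). Genes named in the text were compared in this way for these 2 contrasts, at 1.5-fold or more on both sides, and groups of 1 library could not be searched for outlying samples.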

How the results depend on the processing

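No paired analysis was possible because each genotype has 1 library, and for the same reason no library could be left out in turn. The share of LSECs was lowest in flox/flox under every alternative that gave one, but its size moved: with at least 5 rule UMIs they were 1.20%, 3.29% and 2.97% in flox/flox, wt/flox and wt/wt. Without leukocyte-marker barcodes, a choice made after the data were seen, they were 1.32% in flox/flox and 3.17% in wt/wt. Without barcodes holding other-class marker UMIs they were 3.62% in wt/flox and 3.25% in wt/wt, and among barcodes of at least 1000 UMIs 6.07% in wt/flox and 6.36% in wt/wt. Counts of genes past 1.5-fold depend on how low counts are treated. For flox/flox over wt/wt, genes higher and lower were 1982 and 1868 with hepatocyte RNA subtracted, 445 and 559 at a minimum of 50 UMIs, and 2202 higher with no minimum and 795 lower after thinning. For flox/flox over wt/flox they were 1890 and 1913, 450 and 587, 2124 higher and 769 lower. For wt/flox over wt/wt they were 1660 and 1512 with subtraction, 308 and 310 at 50 UMIs, and 1714 and 1580 with no minimum. The type I interferon members higher were 15, 11 and 6 of the 19 that reach 50 UMIs, in the same 3 comparisons. They were 18 over wt/wt and 13 over wt/flox after thinning, and 14 over wt/flox with at least 1000 UMIs per barcode.

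The direction turned for these values, several of which rest on counts under 3 that were set to 3 in ratios. Such values depend on that floor and show no measured change. The cause was not tested for the others. Without barcodes over 2 times the median UMIs, the MHC class II median was -0.47 for flox/flox over wt/wt and -1.35 over wt/flox; H2-Ab1 had -0.47 and -1.35, H2-Aa -0.92 and -1.75, H2-Eb1 -0.92 and -1.35, and Cd74 -0.37 over wt/flox. Without leukocyte-marker barcodes, wt/flox over wt/wt was -0.61 for each of Cd74, H2-Aa and H2-Ab1 and -1.19 for Plac8, and Cxcl10 was 0.32 for flox/flox over wt/flox. All of these are at the floor: Cd74, H2-Aa, H2-Ab1 and H2-Eb1 together had 2 UMIs in wt/flox. Plac8 had 2 UMIs in wt/flox and Cxcl10 had 1 in flox/flox. With at least 5 rule UMIs, H2-Eb1 was -0.12 and Plac8 -0.77 for wt/flox over wt/wt. Thinning gave 0.12 for Cxcl10 in flox/flox over wt/flox, and 0.021 and 0.29 for Ggact over wt/wt and wt/flox. Hepatocyte RNA subtraction gave -0.96 for Isg15 in flox/flox over wt/flox, and erythroid medians of 1.20, 1.32 and -0.12 in the 3 comparisons. These erythroid medians have the size of the ratios of the LSEC totals alone, as when both counts are set to the floor. Ccn2 was 0.12 for wt/flox over wt/wt without other-class marker UMIs.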

Other observations

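Haemoglobin and neutrophil transcripts in LSECs were mostly in wt/flox. The 4 haemoglobin genes had 1 UMI in flox/flox, 1111 in 12 LSECs of wt/flox and 101 in 3 LSECs of wt/wt. The 7 neutrophil markers had 0, 99 and 0 UMIs in flox/flox, wt/flox and wt/wt, the 99 in 13 LSECs.

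Cdkn1a was lowest in wt/flox in LSECs and in hepatocyte-marker barcodes. This gene, of the cell cycle inhibitor p21, had 215, 62.7 and 184 CPM in LSECs of flox/flox, wt/flox and wt/wt and 140, 34.2 and 123 CPM in hepatocyte-marker barcodes. Rhob, a small GTPase, had 186, 104 and 290 CPM in LSECs, against 15.1, 14.1 and 15.7 CPM in hepatocyte-marker barcodes.

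Adamts1, Plpp3 and Fabp4 were highest in wt/wt. Adamts1, a matrix protease, had 87.0, 97.5 and 225 CPM in flox/flox, wt/flox and wt/wt. Plpp3, a lipid phosphatase of endothelium, had 1102, 784 and 1465 CPM, and Fabp4, a fatty acid carrier, 232, 128 and 268 CPM.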
